A study of Mus musculus with 30 samples.

Results

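The 9 genes described here encode the ligands of transforming growth factor beta (Tgfb1, Tgfb2 and Tgfb3), their receptors (Tgfbr1, Tgfbr2 and Tgfbr3) and a set of SMAD proteins (Smad3, Smad6 and Smad7). They were chosen by name from the core of the TGF-beta pathway, without Smad2 and Smad4, and with earlier results of these data known. Their counts are therefore no unbiased sample of the pathway. Each was represented by its brightest probe set (by the mean of the 30 arrays) among those annotated to 1 gene. All 9 passed the filter on dim probe sets, and they stand among 18194 genes with such a probe set, of which 12674 passed the filter and were tested.

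TGF-beta ligands are secreted in a latent complex, and once released they bind the type II receptor Tgfbr2, which recruits and phosphorylates the type I receptor Tgfbr1. The type I receptor phosphorylates Smad2 and Smad3, which enter the nucleus with Smad4 and regulate transcription, and betaglycan, the product of Tgfbr3, presents ligand to the signalling receptors. Smad6 and Smad7 are inhibitory SMADs that act at the receptors, and in fibroblasts the pathway is known for inducing matrix and contractile genes.

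The study measured RNA on arrays in mouse embryonic fibroblasts that carry a p53 allele silenced by a removable stop cassette (p53 LSL/LSL, strain C57BL/6 x 129SvJ, from E13.5 embryos), grown with 10% serum, and it asked how p53 restoration and siRNAs against p53, the noncoding RNA lincRNA-p21 and hnRNP-K change expression. In the time course, cells received adenovirus with Cre recombinase (AdenoCre) to excise the cassette and restore p53, or with GFP (AdenoGFP) for 24 h, then 500 nM doxorubicin, a drug that breaks DNA, for 0, 1, 3, 6 or 9 h, with the 0 h arrays untreated and 1 array for each virus and time. In both siRNA experiments all cells, controls included, received AdenoCre for 24 h, siRNA for 24 h and 100 nM doxorubicin for 13 h. The lincP21KD experiment held 3 arrays with siP53, 3 with siLincp21 and 2 with the control siRNA, and the hnRNPKKD experiment held 3 arrays each with siP53, siLincp21, siHnrnpk and the control siRNA.

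The AdenoCre and AdenoGFP groups also differ in Cre and GFP themselves, so what follows from p53 restoration and what follows from either virus cannot be told apart. The labels do not say whether replicate arrays came from separate cultures, so the p-values cover no more than the spread among the arrays at hand, which may be technical. Signals are deposited log2 values, and the array medians of the 3 experiments lie at different levels, so levels are compared only within an experiment. A level on 1 probe set cannot be set against that of another gene.

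Cdkn1a, the p21 gene and a known p53 target, lay between 11.96 and 13.22 log2 with AdenoCre, against 8.46 to 9.32 with AdenoGFP, and with siP53 it fell by 2.07 on the log2 scale in the lincP21KD experiment and fell by 2.64 in the hnRNPKKD experiment (limma, adjusted p = 4.91e-06 and 4.39e-07). Hnrnpk was 8.38, 8.34 and 9.94 with siHnrnpk, against 12.68, 12.03 and 12.47 with the control siRNA, so that the last of the siHnrnpk arrays was lowered least. The transcripts of p53 and of lincRNA-p21 are not analysed here, so neither siP53 nor siLincp21 was checked on its own target. Cdkn1a differed with siLincp21 by 0.01 in the lincP21KD and 0.31 in the hnRNPKKD experiment, neither of them called (limma, adjusted p = 0.98 and 0.213). All 11 fibroblast markers were above the filter, while of the markers of other cell types 5 of 8 were above it for macrophages, 1 of 7 for endothelium, 6 of 9 for epithelium, 4 of 7 for skeletal muscle, 7 of 8 for neural cells, 3 of 4 for adipocytes and 5 of 6 for chondrocytes. Below it were, among others, Ptprc and Adgre1 (macrophages), Pecam1 and Cdh5 (endothelium), Cdh1 (epithelium), Myod1 (muscle), Adipoq (adipocytes), Olig2 (neural cells) and Matn1 (chondrocytes), while Csf1r (mean 5.99 log2), Kdr (6.01), Epcam (6.97), Krt19 (8.91), Des (5.84), Fabp4 (8.81), Nes (8.91) and Sox9 (7.14) of the same lists were above it. The second siP53 array of the hnRNPKKD experiment stood apart, with a correlation of 0.976 to 0.987 with the other arrays of its group and a Cdkn1a signal of 11.41 against 10.52 and 10.61 in them, so the siP53 values of the members and the siP53 counts of the gene lists in that experiment are given with and without it. The Cdkn1a fall was -2.92 without it (limma, adjusted p = 1.81e-10). In the time course the median over tested genes was lowest, 8.02, on the 6 h array of AdenoGFP, against 8.20 to 8.33 on the other 9 time-course arrays.

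The promoters of Tgfb1, Tgfbr1 and Tgfbr2 are shown because Tgfb1 and Tgfbr1 both fell with siHnrnpk while Tgfbr2 did not pass the test there. The RefSeq promoter table used here (GRCm38.p6) had an entry for 6 of the 9 members, and 250 bases before the start were searched on both strands for 7 motifs: the p53 half-site, the AP-1 element TGANTCA, the cyclic AMP response element TGACGTCA, the SMAD-binding CAGA box CAGACA, the SP1 GC box GGGCGG, the CCAAT box CCAAT and the TATA box TATAAA. Capitals mark every match, none of which overlapped another.
Tgfb1 (chr7:25686752-25687001, plus strand): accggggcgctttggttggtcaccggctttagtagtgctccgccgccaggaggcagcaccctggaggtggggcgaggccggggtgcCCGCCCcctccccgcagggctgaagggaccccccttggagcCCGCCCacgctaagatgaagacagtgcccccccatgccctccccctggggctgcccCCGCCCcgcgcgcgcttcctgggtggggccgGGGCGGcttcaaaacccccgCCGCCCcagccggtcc
Tgfbr1 (chr4:47352972-47353221, plus strand): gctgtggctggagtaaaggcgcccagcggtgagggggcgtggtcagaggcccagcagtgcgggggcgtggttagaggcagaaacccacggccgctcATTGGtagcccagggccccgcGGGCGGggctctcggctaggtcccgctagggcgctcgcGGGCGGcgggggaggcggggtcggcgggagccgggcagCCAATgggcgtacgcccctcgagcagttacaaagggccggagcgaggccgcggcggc
Tgfbr2 (chr9:116175364-116175613, minus strand): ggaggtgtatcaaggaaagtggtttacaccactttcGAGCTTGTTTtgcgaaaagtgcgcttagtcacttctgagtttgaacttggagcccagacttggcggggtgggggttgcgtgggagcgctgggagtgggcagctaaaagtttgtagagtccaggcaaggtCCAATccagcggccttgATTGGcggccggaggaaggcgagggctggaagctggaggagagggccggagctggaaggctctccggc
The window of Tgfb1 held 5 GC boxes and was 75.2% G or C. That of Tgfbr1 held 2 GC boxes and 2 CCAAT boxes at 74.8% G or C, and that of Tgfbr2 held 2 CCAAT boxes and 1 p53 half-site match at 58.4%. Of all 32851 RefSeq windows of this length, 32.7% held a GC box, 33.8% a CCAAT box and 7.13% a p53 half-site.

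Tgfb2 differed from these. Its RefSeq start lies inside the annotated gene, and its window held a TATA box, which 12.4% of all windows hold, in the stretch from base -43 to base -14 before that start (chr1:186706003-186706032, minus strand).
Tgfb2: ttggggagcacaTATAAAactctgctccgg
A CAGA box, held by 17.1% of all windows, and a CCAAT box lay further upstream in it, and it was 53.6% G or C with no GC box. The windows of Smad3 and Smad6 held GC boxes, 2 and 4 of them, and none of the other motifs. With siHnrnpk these genes did not fall, with differences of 0.29 and 0.18, neither called. The window of a second RefSeq start of Tgfbr1 held a CAGA box. The AP-1 element and the cyclic AMP response element, held by 6.75% and 1.55% of all windows, were in none of the members' windows. These matches are letters in a window and carry no measurement of binding. Their part in the members' differences was not tested.

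The member genes themselves span chr7:25687002-25705077 (Tgfb1), chr1:186622787-186709697 (Tgfb2), chr12:86056743-86079041 (Tgfb3), chr4:47353222-47414926 (Tgfbr1), chr9:116087695-116175363 (Tgfbr2), chr5:107106567-107289629 (Tgfbr3), chr9:63646766-63757994 (Smad3), chr9:63953076-64022085 (Smad6) and chr18:75367365-75395935 (Smad7).

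With AdenoCre all 3 ligands rose, the coreceptor Tgfbr3 fell and the SMADs Smad3 and Smad7 rose relative to AdenoGFP over the 5 times. The virus effect was fitted with limma with the time as a block, and genes were called at a Benjamini-Hochberg adjusted p below 0.05 over all tested genes. Of the 9 members 5 rose and 1 fell, where 12.9% of all tested genes were called higher and 6.24% lower. The members' median difference was 0.31, against 0.04 over all tested genes. Without the 1, 3, 6 or 9 h pair 2, 3, 2 and 3 members were called. With 1 pair left out, calls over all genes were 1146 to 2055, against 2427 with all arrays. These are bulk samples, in which fewer cells of a type and less RNA per cell cannot be told apart. The mean log2 signal of the 11 fibroblast markers lay between 11.57 and 12 with AdenoCre, against 11.89 to 12.12 with AdenoGFP. Of 31 tested markers of the 7 other cell types 6 rose (Krt19 1.36, Krt7 0.96, Cd68 0.81, Fabp4 0.67, Nes 0.52 and Chrna1 0.52) and 4 fell (Lpl -1.55, Krt18 -1.05, Krt8 -0.64 and Tubb3 -0.37). The part of either set of markers in the differences was not tested.

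Tgfb1, the most widely made ligand, had log2 signals of 9.25, 9.32, 9.76, 9.41 and 9.18 with AdenoCre at 0, 1, 3, 6 and 9 h, against 8.75, 8.51, 8.98, 8.61 and 8.94 with AdenoGFP. Every AdenoCre array was above every AdenoGFP array. The difference was 0.63 ± 0.11 (SE, limma, adjusted p = 0.00705), a 1.54-fold rise that was smallest at 9 h (0.25) and largest at 1 h (0.81), and it kept its call whichever pair of arrays was left out.

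Tgfb2 had signals of 9.69, 10.13, 9.97, 9.54 and 9.57 with AdenoCre, against 9.24, 9.57, 9.76, 9.16 and 9.40 with AdenoGFP. AdenoCre was higher at each of the 5 times, and the groups overlapped. The rise was 0.36 ± 0.09 (limma, adjusted p = 0.0279), and it was not called without the 0, 1, 3 or 6 h pair (0.33, 0.30, 0.39 and 0.35, adjusted p between 0.0672 and 0.0784).

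Tgfb3 had signals of 11.41, 11.91, 11.56, 10.96 and 11.03 with AdenoCre, against 11.33, 11.60, 11.30, 10.52 and 10.58 with AdenoGFP. It was highest at 1 h and lowest at 6 h with both viruses, and AdenoCre was higher at each time. The rise of 0.31 ± 0.09 (limma, adjusted p = 0.0398) was not called without the 1, 3, 6 or 9 h pair (0.31, 0.32, 0.28 and 0.28, adjusted p between 0.0767 and 0.114).

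Among the receptors the coreceptor moved and the signalling pair did not pass the test. Tgfbr3 had signals of 8.82, 9.02, 8.78, 8.68 and 8.70 with AdenoCre, against 9.75, 10.03, 9.33, 9.52 and 9.85 with AdenoGFP. No array of one virus reached those of the other. The coreceptor fell by 0.89 ± 0.10 on the log2 scale (limma, adjusted p = 0.00168), 1.86-fold lower, and kept its call without any pair of arrays. The type I receptor Tgfbr1 averaged 8.83 ± 0.29 with AdenoCre and 8.86 ± 0.61 with AdenoGFP (SD, n = 5 each), a difference of -0.03 ± 0.16 (limma, adjusted p = 0.929). Its AdenoGFP array at 6 h stood low, at 7.86, on the array with the lowest median. The type II receptor Tgfbr2 averaged 10.74 ± 0.23 with AdenoCre and 10.80 ± 0.17 with AdenoGFP (SD, n = 5 each), a difference of -0.06 ± 0.09 (limma, adjusted p = 0.695).

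Of the SMADs, the signalling Smad3 had 9.69, 9.96, 9.94, 9.86 and 9.87 with AdenoCre, against 9.56, 9.59, 9.69, 9.27 and 9.56 with AdenoGFP. AdenoCre was higher at each time, and the groups touched at the AdenoCre array of 0 h. The rise was 0.33 ± 0.09 (limma, adjusted p = 0.0373), and it was not called without the 1, 3, 6 or 9 h pair (0.32, 0.35, 0.27 and 0.34, adjusted p between 0.0791 and 0.108).

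The inhibitory Smad7, itself induced by TGF-beta, had 8.87, 8.97, 8.80, 8.80 and 8.90 with AdenoCre, against 8.58, 8.43, 8.66, 7.70 and 8.37 with AdenoGFP. All 5 AdenoCre arrays were above all 5 AdenoGFP arrays, and the AdenoGFP array at 6 h stood lowest. The rise of 0.52 ± 0.14 (limma, adjusted p = 0.0316) was 0.38 without the 6 h pair and not called (adjusted p = 0.0607), and it was also not called without the 1 h or 9 h pair (0.52 in each, adjusted p = 0.0734 and 0.0779). The other inhibitory SMAD, Smad6, had 8.61, 8.28, 8.10, 8.23 and 8.09 with AdenoCre, against 8.19, 7.77, 8.05, 7.95 and 8.41 with AdenoGFP. AdenoCre was higher at 4 of 5 times and lower at 9 h, and the difference of 0.19 ± 0.13 was not called (limma, adjusted p = 0.336).

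Scaling bears on these small rises. Of all called genes 67.4% were higher with AdenoCre, but 51.7% after quantile scaling and 45.2% after centring each array on the median of the tested genes. That centring, chosen after the data were seen, gave a median of all tested genes of -0.07, against 0.04 as deposited. Under it Tgfb1 (0.52), Smad7 (0.41) and Tgfbr3 (-1.0) were called (limma, adjusted p = 0.0068, 0.0362 and 0.000358), while Tgfb2 (0.25), Tgfb3 (0.20) and Smad3 (0.22) were not (adjusted p = 0.0982, 0.16 and 0.107).

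**Figure D1:**
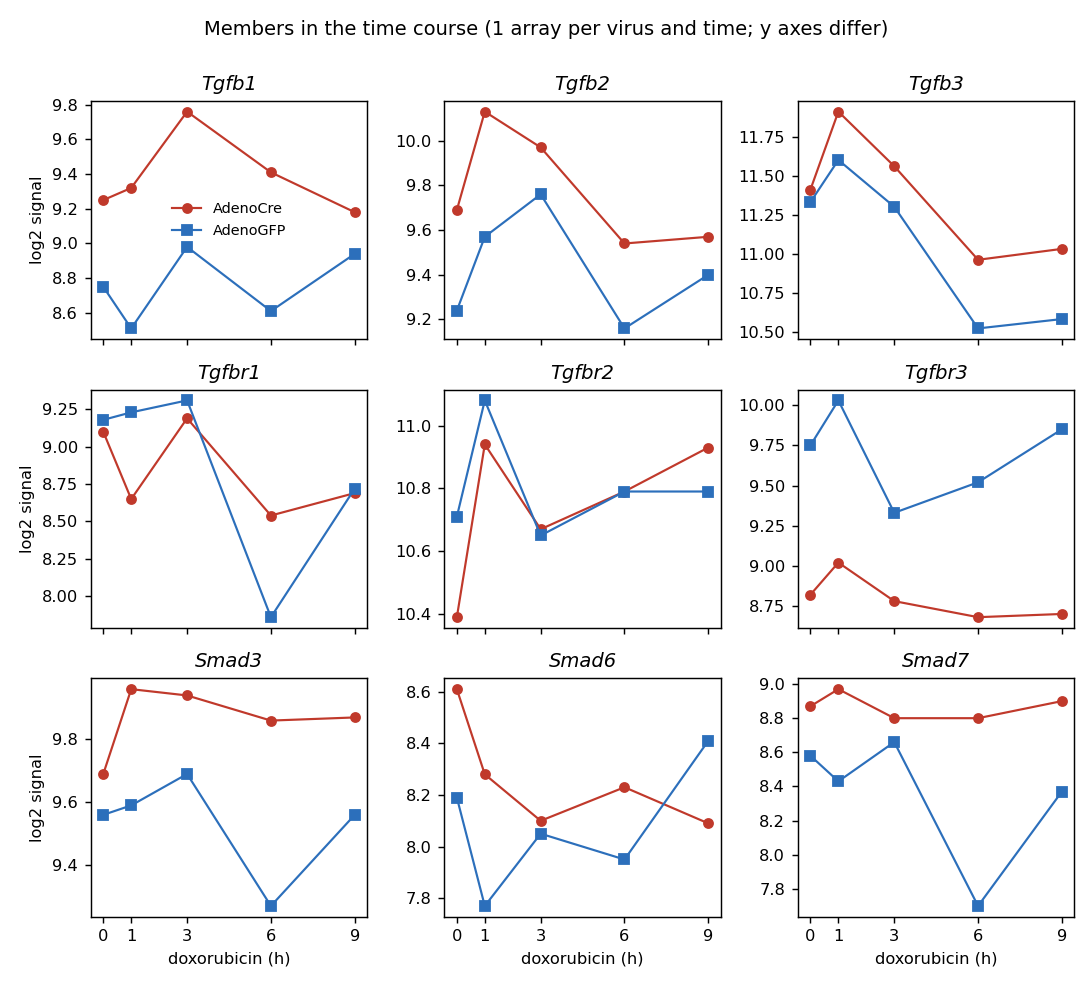
Log2 signal of the 9 members on the vertical axes against hours of doxorubicin, with AdenoCre as red circles and AdenoGFP as blue squares, 1 array each. Tgfb1 and Smad7 lie above AdenoGFP and Tgfbr3 below it at all 5 times, and Tgfb3 is lower at 6 and 9 h than at 0 to 3 h with both viruses.

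Change with hours of doxorubicin was tested as a slope within each virus. No member was called: 0 of 9 with AdenoCre, where 5.4% of all tested genes were called, 0 of 9 with AdenoGFP, where 0.00789% were, and 0 of 9 in the difference between the slopes, where 0.181% were. At an unadjusted p below 0.05 limma gave 1 member in each virus and 0 in the difference, against 20.2%, 13.1% and 8.4% of all tested genes. The 1 member was Tgfb3 in both, with slopes of -0.08 ± 0.03 per h with AdenoCre and -0.12 ± 0.03 per h with AdenoGFP (unadjusted p = 0.0283 and 0.00459, limma adjusted p = 0.185 and 0.229). The difference between them was 0.03 ± 0.05 per h (limma, adjusted p = 0.906).

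In the lincP21KD experiment the coreceptor Tgfbr3 was called higher with siP53. With siLincp21 the ligands Tgfb2 and Tgfb3, the coreceptor and Smad6 were called higher and Tgfbr1 lower. The Smad6 difference was of like size with both siRNAs, 0.42 with siP53 (not called) and 0.46 with siLincp21. Both siRNAs are set against the same 2 control arrays. With siP53 1 member rose and 0 fell, where 7.01% of all tested genes were called higher and 5.74% lower. With siLincp21 4 rose and 1 fell, where 7.47% were called higher and 4.39% lower. The members' medians were 0.13 and -0.03, against 0.02 and 0.01 over all tested genes. With siLincp21 1 member was called without the first control array, 2 without the second and 3 without the first siLincp21 array. Calls over all genes in those fits were 286, 511 and 798, against 1503 with all arrays. After centring on the median of the tested genes, 45.7% of the siLincp21 calls were higher, against 63.0% as deposited. The mean log2 signal of the 11 fibroblast markers lay between 11.64 and 11.75 with siP53 and 11.66 and 11.79 with siLincp21, against 11.42 to 11.47 with the control siRNA. Of the 31 markers of other cell types 4 rose with siP53 (Lpl 1.10, Tubb3 0.88, Map2 0.38 and Comp 0.37) and 3 fell (Cd68 -1.81, Krt7 -0.63 and Csf1r -0.41). With siLincp21 3 rose (Map2 1.15, Tubb3 1.02 and Pparg 0.58) and 5 fell (Krt18 -0.72, Fabp4 -0.52, Csf1r -0.47, Chrna1 -0.36 and Sox9 -0.34). The part of these markers in the members' differences was not tested.

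Among the ligands, Tgfb2 had 8.20, 8.43 and 8.28 with siP53 and 9.05, 8.86 and 9.33 with siLincp21, against 8.53 and 8.58 with the control siRNA. The siLincp21 arrays were all above the controls and the siP53 arrays all below. With siLincp21 it rose by 0.52 ± 0.13 (limma, adjusted p = 0.0258), but not without the first siLincp21 array (0.54, adjusted p = 0.0659) or without either control array (0.50 and 0.55, adjusted p = 0.17 and 0.115). The siP53 difference of -0.25 ± 0.13 was not called (limma, adjusted p = 0.243).

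Tgfb3 had 9.39, 9.40 and 9.40 with siP53 and 9.78, 9.70 and 9.52 with siLincp21, against 9.22 and 9.23 with the control siRNA. All arrays of both siRNAs were above the controls. The rise with siLincp21 was 0.44 ± 0.09 (limma, adjusted p = 0.0108) and was not called without either control array (0.43 and 0.45, adjusted p = 0.096 and 0.0754), and the siP53 difference of 0.17 ± 0.09 was not called (adjusted p = 0.262). Tgfb1 had 7.53, 7.51 and 7.8 with siP53 and 7.45, 7.26 and 7.35 with siLincp21, against 7.45 and 7.52, with differences of 0.13 ± 0.10 and -0.13 ± 0.10 (limma, neither called).

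The coreceptor gave the clearest change. Tgfbr3 had 11.13, 11.19 and 11.34 with siP53 and 11.32, 11.18 and 11.27 with siLincp21, against 10.36 and 10.55 with the control siRNA. The arrays of both siRNAs were all above the controls. It rose by 0.77 ± 0.09 with siP53 and by 0.80 ± 0.09 with siLincp21 (limma, adjusted p = 0.000668 and 0.00133), 1.70-fold and 1.74-fold, and no array left out ended either call.

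Tgfbr1 had 8.75, 9.03 and 9.01 with siP53 and 8.14, 8.30 and 8.32 with siLincp21, against 9.00 and 8.77 with the control siRNA. All siLincp21 arrays were below the controls, and the siP53 arrays overlapped them. It fell by 0.63 ± 0.11 with siLincp21 (limma, adjusted p = 0.00661), 1.55-fold, and the fall was not called without the first control array (-0.52, adjusted p = 0.0896). With siP53 the difference was 0.04 ± 0.11 (adjusted p = 0.868). Tgfbr2, the type II receptor, lay between 10.45 and 10.73 on all 8 arrays, with differences of 0.01 ± 0.09 with siP53 and -0.03 ± 0.09 with siLincp21 (limma, adjusted p = 0.967 and 0.894).

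Smad6 had 7.53, 7.73 and 7.27 with siP53 and 7.58, 7.57 and 7.50 with siLincp21, against 6.95 and 7.23 with the control siRNA. Both siRNAs were above the controls on every array. The rise with siLincp21 was 0.46 ± 0.13 (limma, adjusted p = 0.0453) and was not called without any 1 of the 5 arrays (0.33 to 0.60, adjusted p between 0.0712 and 0.33). It kept its call in 4 of the 12 alternatives run. The siP53 difference of 0.42 ± 0.13 was not called (adjusted p = 0.0618), and without the third siP53 array it was 0.54 and called (adjusted p = 0.0174). Smad3 differed by 0.16 ± 0.09 with siP53 and -0.07 ± 0.09 with siLincp21, and Smad7 by -0.05 ± 0.12 and -0.31 ± 0.12. None of these passed the test (limma, adjusted p = 0.282, 0.694, 0.843 and 0.118).

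**Figure D2:**
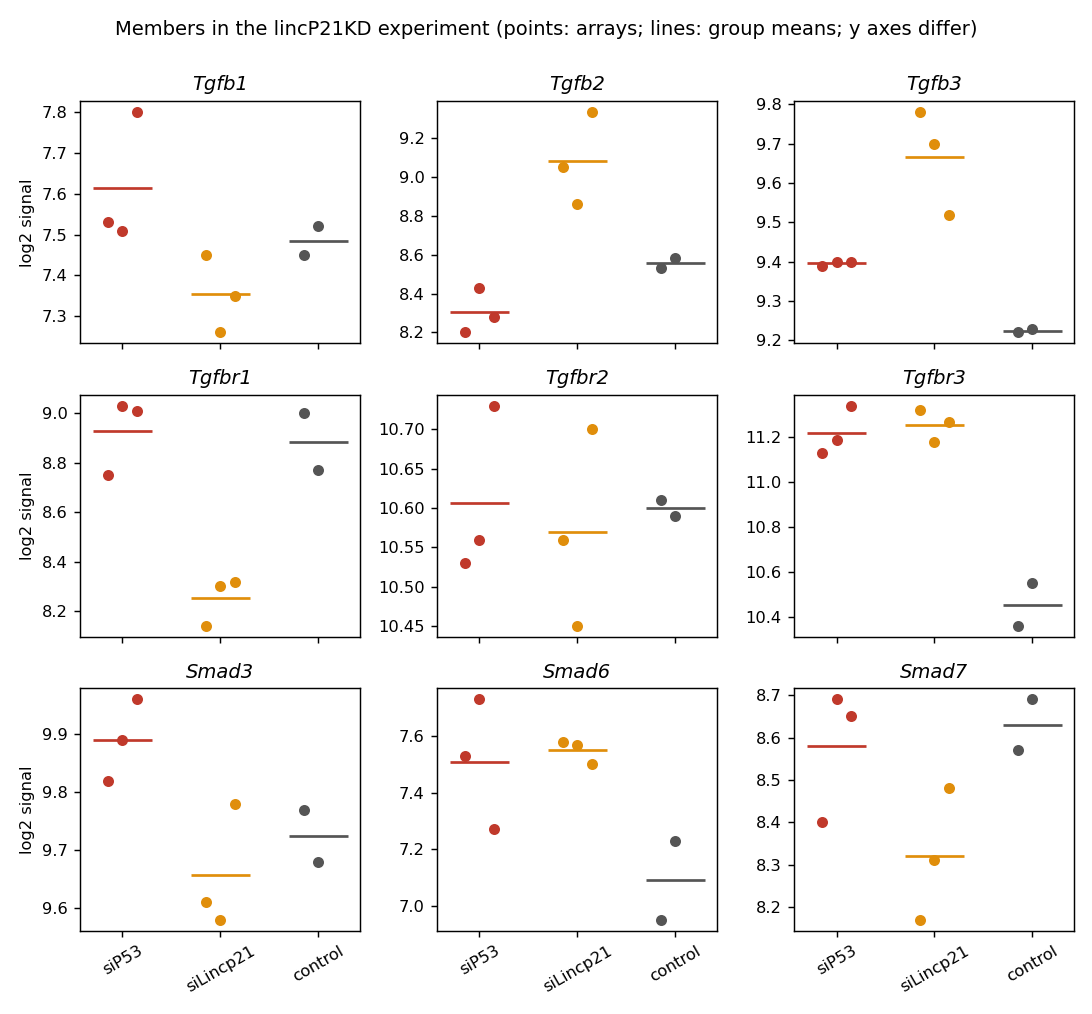
Log2 signal of the 9 members in the lincP21KD experiment on the vertical axes, by siRNA, with arrays as points and group means as lines (n = 3, 3 and 2). Tgfbr3 is above the controls with both siRNAs, Tgfb2 is above them with siLincp21 and below them with siP53, and Tgfbr1 is below them with siLincp21.

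In the hnRNPKKD experiment siP53 and siLincp21 both raised Tgfb2, Tgfb3, Tgfbr3 and Smad6, and siHnrnpk lowered Tgfb1 and Tgfbr1 while raising Tgfbr3. All 3 are set against the same 3 control arrays. With siP53 4 members rose and 1 fell, where 19.3% of all tested genes were called higher and 19.2% lower. With siLincp21 4 rose and 2 fell, where 17.2% were called higher and 11.8% lower. With siHnrnpk 1 rose and 2 fell, where 14.1% were called higher and 12.8% lower, so that its counts lie near the background. The members' medians were 0.05, 0.22 and 0.06, against -0.01, 0.01 and 0.00 over all tested genes. The mean log2 signal of the 11 fibroblast markers lay between 11.68 and 11.73 with siP53, 11.47 and 11.53 with siLincp21 and 11.18 and 11.24 with siHnrnpk, against 11.28 to 11.36 with the control siRNA. Of the 31 markers of other cell types 5 rose with siP53 (Lpl 1.17, Map2 0.94, Comp 0.80, Tubb3 0.69 and Kdr 0.45) and 7 fell (Krt18 -3.16, Cd68 -2.63, Sox2 -1.77, Sox9 -1.03, Fabp4 -0.98, Krt19 -0.78 and Pparg -0.44). With siLincp21 4 rose (Map2 1.40, Tubb3 0.75, Lpl 0.70 and Col2a1 0.70) and 3 fell (Krt18 -3.02, Sox9 -1.23 and Sox2 -0.67). With siHnrnpk 5 rose (Tubb3 1.73, Krt7 1.30, Map2 0.77, Col2a1 0.54 and Nes 0.45) and 3 fell (Krt18 -2.91, Csf1r -0.71 and Lpl -0.59). Without the second siP53 array 6 of these markers rose and 9 fell with siP53, in a fit to which the shares above do not apply. The part of these markers in the members' differences was not tested. After centring on the median of the tested genes, 48.1% of the siLincp21 calls were higher, against 59.2% as deposited.

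Tgfb2 had 8.66, 8.42 and 8.71 with siP53, 9.13, 8.94 and 9.39 with siLincp21 and 8.26, 8.23 and 8.30 with siHnrnpk, against 8.12, 7.89 and 8.0 with the control siRNA. The 4 groups did not overlap, with siLincp21 highest and the control lowest. It rose by 0.59 ± 0.12 with siP53 and by 1.15 ± 0.12, or 2.23-fold, with siLincp21 (limma, adjusted p = 0.00178 and 2.27e-05). The siHnrnpk difference of 0.26 ± 0.12 was not called (adjusted p = 0.134).

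Tgfb3 had 9.31, 9.37 and 9.42 with siP53, 9.83, 9.75 and 9.97 with siLincp21 and 8.52, 8.58 and 8.79 with siHnrnpk, against 8.78, 8.74 and 8.79 with the control siRNA. The siLincp21 arrays were highest and the siP53 arrays next, and the siHnrnpk arrays overlapped the controls. It rose by 0.60 ± 0.09 with siP53 and by 1.08 ± 0.09, or 2.12-fold, with siLincp21 (limma, adjusted p = 0.000287 and 5.71e-06), and differed by -0.14 ± 0.09 with siHnrnpk (adjusted p = 0.321).

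Tgfb1 was called with siHnrnpk alone. It had 8.09, 8.24 and 8.11 with siP53, 8.50, 8.58 and 8.61 with siLincp21 and 7.54, 7.71 and 7.66 with siHnrnpk, against 8.22, 8.43 and 8.38 with the control siRNA. The siHnrnpk arrays were all below the rest, and with siHnrnpk it fell by 0.70 ± 0.09, or 1.63-fold (limma, adjusted p = 0.000127). The siP53 difference of -0.19 ± 0.09 and the siLincp21 difference of 0.22 ± 0.09 were not called (adjusted p = 0.114 and 0.0886).

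The type I receptor Tgfbr1 had 8.45, 8.24 and 8.53 with siP53, 8.70, 8.43 and 8.76 with siLincp21 and 7.41, 7.38 and 7.72 with siHnrnpk, against 9.24, 8.48 and 8.73 with the control siRNA. The siHnrnpk arrays were all below every other array, and the first control array stood high. It fell by 1.32 ± 0.18, or 2.49-fold, with siHnrnpk (limma, adjusted p = 0.000161). The differences of -0.41 ± 0.18 with siP53 and -0.18 ± 0.18 with siLincp21 were not called (adjusted p = 0.0865 and 0.486). Without the second control array the siP53 difference was -0.58 and called (adjusted p = 0.0228).

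The type II receptor Tgfbr2 had 11.11, 11.23 and 11.26 with siP53, 11.16, 11.33 and 11.34 with siLincp21 and 11.42, 11.53 and 11.55 with siHnrnpk, against 11.44, 11.41 and 11.46 with the control siRNA. The siP53 arrays were all below the controls. The fall of 0.24 ± 0.09 with siP53 (limma, adjusted p = 0.0431) was not called without the first siP53 array (-0.19, adjusted p = 0.157) or without any 1 of the control arrays (-0.24, -0.25 and -0.23, adjusted p between 0.0695 and 0.112). It was also not called after centring on the median of the tested genes (-0.22), after quantile scaling (-0.20) or with no filter (-0.24; limma, adjusted p = 0.0608, 0.0816 and 0.0582). The other differences were -0.16 ± 0.09 with siLincp21 and 0.06 ± 0.09 with siHnrnpk (adjusted p = 0.184 and 0.653).

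Tgfbr3 had 10.63, 10.56 and 10.81 with siP53, 10.09, 10.16 and 10.42 with siLincp21 and 9.87, 9.91 and 9.95 with siHnrnpk, against 8.67, 9.30 and 8.63 with the control siRNA. The 4 groups did not overlap, and the second control array stood above the other controls. The coreceptor rose by 1.80 ± 0.16 with siP53, 1.36 ± 0.16 with siLincp21 and 1.04 ± 0.16 with siHnrnpk (limma, adjusted p = 3.93e-06, 6.13e-05 and 0.000417), which is 3.48-fold, 2.56-fold and 2.06-fold. With the fall with AdenoCre, Tgfbr3 was the only member called in all 6 comparisons of groups.

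Smad6, the inhibitory SMAD best known for restraining BMP receptors, had 8.74, 8.45 and 9.02 with siP53, 7.94, 7.97 and 8.14 with siLincp21 and 7.69, 7.65 and 7.58 with siHnrnpk, against 7.43, 7.67 and 7.28 with the control siRNA. The siP53 arrays were highest, the siLincp21 arrays next, and siHnrnpk overlapped the controls. It rose by 1.28 ± 0.14, or 2.43-fold, with siP53 and by 0.56 ± 0.14 with siLincp21 (limma, adjusted p = 1.76e-05 and 0.00975), and differed by 0.18 ± 0.14 with siHnrnpk (adjusted p = 0.395).

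Smad7 had 7.96, 7.49 and 8.11 with siP53, 7.14, 7.10 and 7.48 with siLincp21 and 7.67, 7.51 and 7.39 with siHnrnpk, against 8.11, 7.68 and 7.64 with the control siRNA. All siLincp21 arrays were below the controls, and the other siRNAs overlapped them. The fall with siLincp21 was 0.57 ± 0.17 (limma, adjusted p = 0.0262) and was not called without the first or second siLincp21 array (-0.52 and -0.50, adjusted p = 0.089 and 0.0909) or without the first control array (-0.42, adjusted p = 0.111). The differences with siP53 and siHnrnpk were 0.05 ± 0.17 and -0.28 ± 0.17 (adjusted p = 0.863 and 0.269).

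Smad3 had 9.40, 9.24 and 9.56 with siP53, 9.07, 9.06 and 9.27 with siLincp21 and 9.69, 9.77 and 9.68 with siHnrnpk, against 9.50, 9.41 and 9.38 with the control siRNA. The siLincp21 arrays were below the controls, the siHnrnpk arrays above them, and the siP53 arrays overlapped them. The fall of 0.30 ± 0.10 with siLincp21 (limma, adjusted p = 0.0413) was not called without the first or second siLincp21 array or without any 1 of the control arrays (-0.33 to -0.26, adjusted p between 0.0672 and 0.133). The siHnrnpk difference of 0.29 ± 0.10 was not called (adjusted p = 0.052), but it was called with arrays centred on their medians (0.31), after quantile scaling (0.30) and with trend and robust variances (0.29; limma, adjusted p = 0.0351, 0.0359 and 0.0498), and the siP53 difference was -0.03 ± 0.10 (adjusted p = 0.83).

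Without the second siP53 array the siP53 differences were 0.68 for Tgfb2, 0.60 for Tgfb3, 1.85 for Tgfbr3, 1.42 for Smad6 and -0.25 for Tgfbr2, all still called (limma, adjusted p between 1.43e-06 and 0.0358). Tgfb1 was then called as well, at -0.24 (adjusted p = 0.0487), and the differences of Smad7 (0.23), Tgfbr1 (-0.32) and Smad3 (0.05) were not (adjusted p = 0.241, 0.168 and 0.709), with the sign of Smad3 turned.

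**Figure D3:**
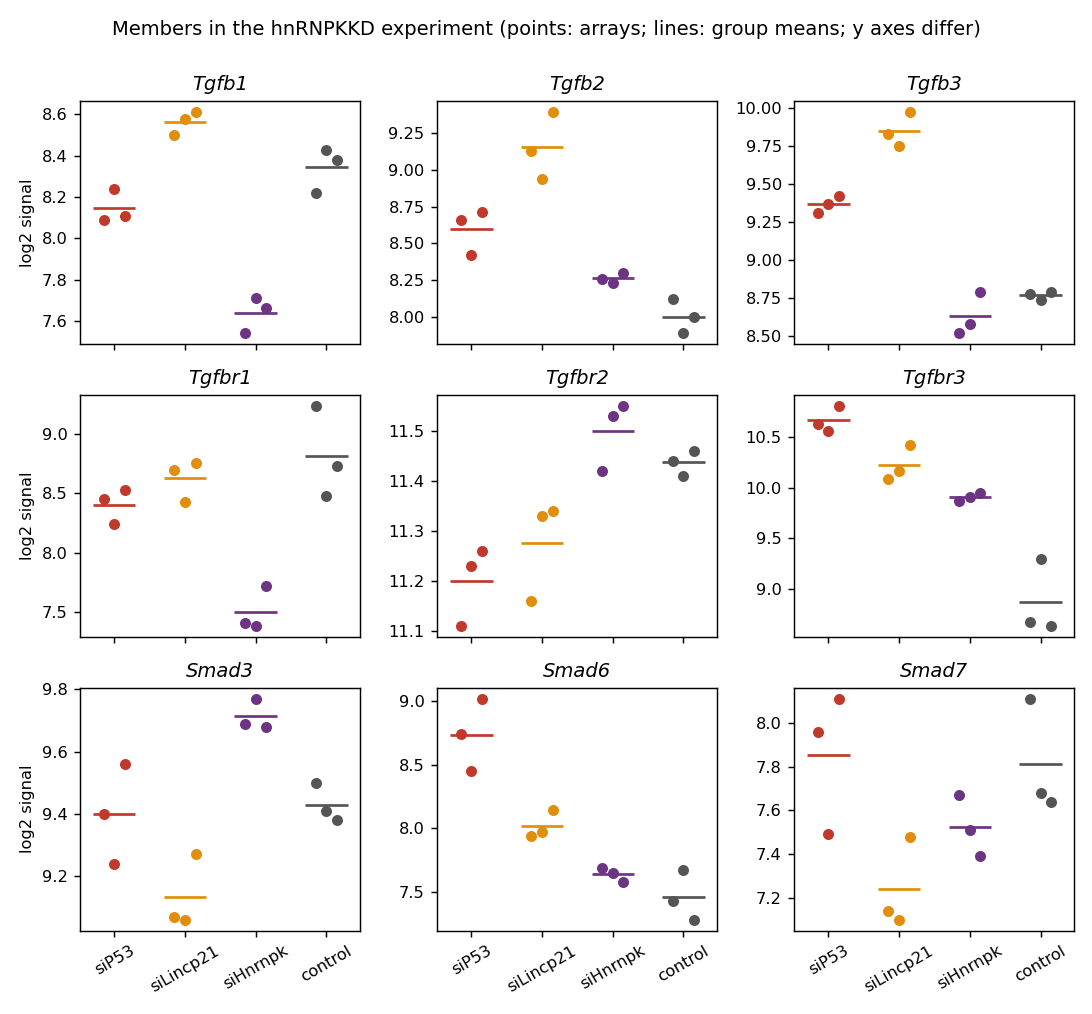
Log2 signal of the 9 members in the hnRNPKKD experiment on the vertical axes, by siRNA, with arrays as points and group means as lines (n = 3 each). Tgfb2 and Tgfb3 are highest with siLincp21, Tgfbr3 and Smad6 with siP53, and Tgfb1 and Tgfbr1 are lowest with siHnrnpk.

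**Figure D4:**
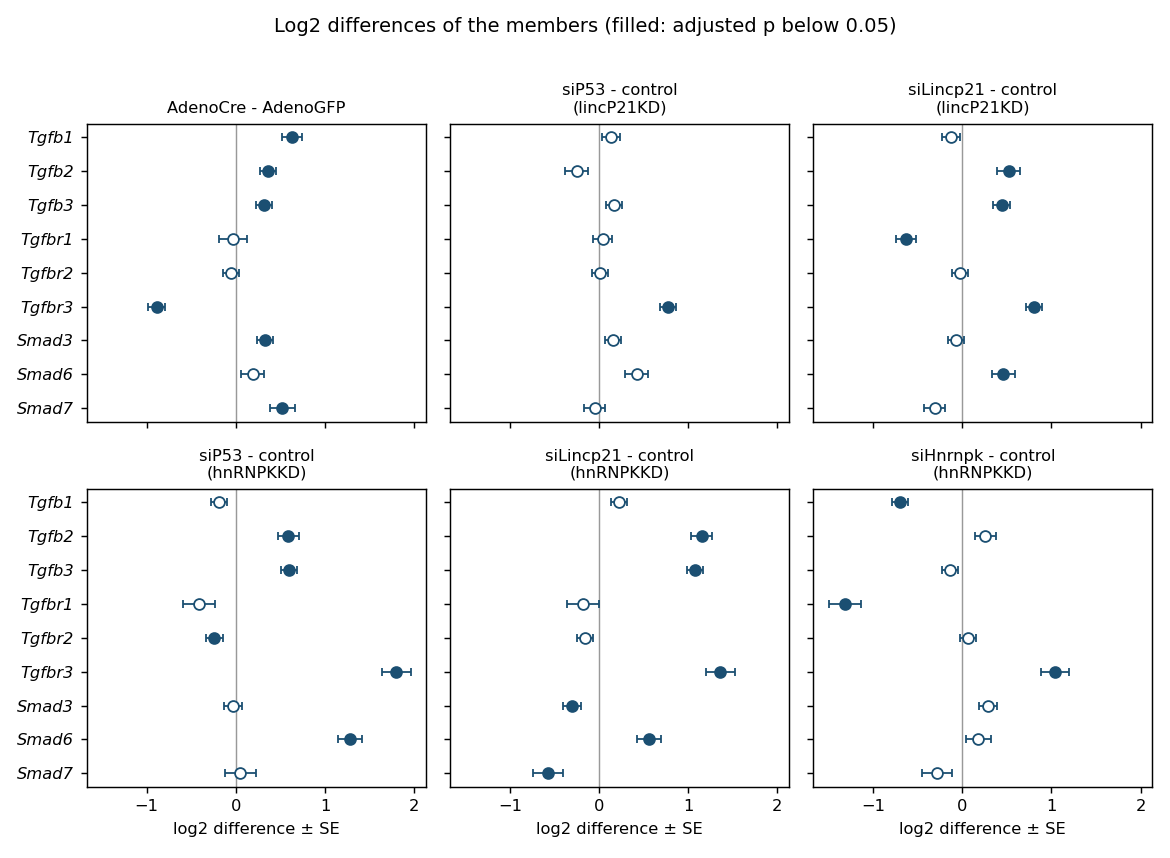
Log2 differences of the 9 members (horizontal axes, ± SE from limma) in the 6 comparisons of groups, with filled points for an adjusted p below 0.05. Tgfbr3 is below 0 with AdenoCre and above 0 with every siRNA.

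The siRNAs were also set directly against each other within each experiment. In the lincP21KD experiment siLincp21 against siP53 gave 2 members higher and 1 lower, where 20.4% of all tested genes were called. Tgfb2 was higher by 0.78 ± 0.11 and Tgfb3 by 0.27 ± 0.08, and Tgfbr1 was lower, at -0.67 ± 0.10 (limma, adjusted p = 0.00119, 0.0321 and 0.00126). The Tgfb3 call was lost without any 1 of 5 arrays (each siP53 array and the first or second siLincp21 array, 0.22 to 0.28, adjusted p between 0.0709 and 0.116). Tgfbr3, raised by both, differed by 0.04 ± 0.08 between them (adjusted p = 0.792). Smad6, called against the controls with siLincp21 alone, differed by 0.04 ± 0.12 between the 2 siRNAs (limma, adjusted p = 0.826).

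In the hnRNPKKD experiment siLincp21 against siP53 gave 3 members higher (Tgfb1 0.41, Tgfb2 0.56, Tgfb3 0.48) and 3 lower (Tgfbr3 -0.45, Smad6 -0.72, Smad7 -0.62), where 38.8% of all tested genes were called (limma, adjusted p between 0.00122 and 0.0428). The ligand differences and that of Smad6 kept their call whichever array was left out. Tgfbr3 lost it without the first or second siLincp21 array or the first or the third siP53 array (-0.47 to -0.37, adjusted p between 0.0813 and 0.143), and Smad7 lost it without the same 4 arrays (-0.56 to -0.49, adjusted p between 0.0519 and 0.0552).

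With siHnrnpk against siP53, where 45.3% of all tested genes were called, Tgfbr2 (0.30) and Smad3 (0.32) were higher and Tgfb1 (-0.51), Tgfb2 (-0.33), Tgfb3 (-0.74), Tgfbr1 (-0.91), Tgfbr3 (-0.76) and Smad6 (-1.10) were lower (limma, adjusted p between 3.42e-05 and 0.0387). The Tgfb2 call was lost without any 1 of 5 of the 6 arrays (-0.35 to -0.28, adjusted p between 0.0696 and 0.115), and it was called without the second siP53 array (-0.42, adjusted p = 0.00941). The Tgfbr2 call was lost without the first siP53 array (0.26, adjusted p = 0.0547), and the Smad3 call without the second siHnrnpk array or the first or second siP53 array (0.29, 0.32 and 0.24, adjusted p between 0.0525 and 0.0758). With siHnrnpk against siLincp21, where 27.6% were called, Smad3 was higher (0.58 ± 0.10) and Tgfb1 (-0.92 ± 0.09), Tgfb2 (-0.89 ± 0.12), Tgfb3 (-1.22 ± 0.09) and Tgfbr1 (-1.13 ± 0.18) were lower (limma, adjusted p between 3.64e-06 and 0.00087), all of them whichever array was left out. These comparisons share their siRNA arrays with those against the controls.

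Both experiments held siRNAs against p53 and lincRNA-p21, and the effects against their own controls were compared in a joint fit of the 20 siRNA arrays. The labels name the targets of the siRNAs and not their sequences, and name the controls differently, so a difference between the experiments and one between reagents cannot be told apart. For the siP53 effect, where 14.5% of all tested genes were called different, 4 members were called, and each effect was lower in the lincP21KD than in the hnRNPKKD experiment. For Tgfb2 the difference of effects was -0.85 ± 0.18, for Tgfb3 -0.43 ± 0.13, for Tgfbr3 -1.04 ± 0.21 and for Smad6 -0.86 ± 0.21 (limma, adjusted p = 0.00474, 0.0304, 0.00306 and 0.00897). The Tgfb3 call was lost without any 1 of 9 arrays (adjusted p between 0.0508 and 0.108), and that of Smad6 without the second lincP21KD control array (-0.72, adjusted p = 0.0776). For the siLincp21 effect, where 8.14% were called, Tgfb2 (-0.63 ± 0.18) and Tgfb3 (-0.64 ± 0.13) were lower in the lincP21KD experiment (limma, adjusted p = 0.0405 and 0.00416), and the Tgfb2 call was lost without any 1 of 8 arrays (-0.66 to -0.51, adjusted p between 0.0697 and 0.167). Tgfbr1, which fell with siLincp21 only in the lincP21KD experiment, had a difference of effects of -0.45 ± 0.24 that was not called (adjusted p = 0.296). With the mean of all probe sets of a gene, the difference of the siP53 effects for Tgfbr3 was -0.34 and not called (limma, adjusted p = 0.223).

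Other probe sets of the same gene gave a check for the 7 members that have them. The 3 further probe sets of Tgfb2 were also higher on every array with siLincp21. The differences were 0.50, 0.65 and 0.51 in the lincP21KD and 1.10, 0.91 and 0.60 in the hnRNPKKD experiment. These probe sets are read on the same arrays, and the share of all probe sets that separate in this way was not counted. With AdenoCre they were higher by 0.11, 0.21 and 0.25, and the arrays of the viruses overlapped in each. With siP53 they differed by 0.47, 0.53 and 0.21 in the hnRNPKKD experiment, where only those of 0.53 did not overlap the controls. With siHnrnpk they differed by -0.06, 0.23 and -0.15, where only those of 0.23 did not overlap the controls. In the lincP21KD experiment they differed by -0.15, 0.00 and -0.04 with siP53. The second probe set of Tgfbr3 was lower by 0.55 with AdenoCre, where its arrays overlapped those with AdenoGFP. It was higher on every array with siP53 (0.88) and siLincp21 (0.86) in the lincP21KD experiment. In the hnRNPKKD experiment it was higher by 0.53 with siP53 and by only 0.03 and 0.06 with siLincp21 and siHnrnpk, where its arrays overlapped the controls, and its mean there was 5.22 with the control siRNA, near the filter limit of 4.544. The second probe set of Smad7 was lower by 0.43 with siLincp21 in the hnRNPKKD experiment, and higher by only 0.04 with AdenoCre. That of Tgfb1, with a mean of 4.85 over all arrays, differed by 0.09 with AdenoCre, where its arrays overlapped those with AdenoGFP. With siHnrnpk it was higher by 0.14, with every array above the controls, opposite to the fall on the brighter one. With the mean of both probe sets the difference was 0.36 with AdenoCre and -0.28 with siHnrnpk, still called (limma, adjusted p = 0.0245 and 0.00781). The 2 further probe sets of Tgfbr1, with means of 4.72 and 4.41, differed by -0.20 and -0.35 with siHnrnpk, and their arrays overlapped the controls. In the lincP21KD experiment both were higher on every array with siP53 (0.40 and 0.21). With siLincp21 there they differed by -0.32 and -0.12, and the arrays of the second overlapped the controls. The brighter of the 2 further probe sets of Tgfbr2 differed by -0.78 with siP53 in the hnRNPKKD experiment, where its arrays overlapped the controls. The 2 further probe sets of Smad3 differed by -0.55 and -0.29 with siLincp21 there, and the arrays of the second overlapped the controls.

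Across all 30 arrays, with each experiment's mean removed, Tgfb2 and Tgfb3 had the highest Pearson correlation among the 36 pairs of members (0.80), followed by Smad3 with Smad7 (0.68) and Tgfbr3 with Smad6 (0.62), and Tgfbr2 with Smad6 had the lowest (-0.61). These arrays share groups, controls and scaling, so the values describe these arrays only. Measured the same way against all tested genes, Tgfb1 was most like Ptprn and Cd151 (both 0.83), Tgfb2 like Daam2 (0.90) and Tbc1d13 (0.88), Tgfb3 like Lmod1 (0.90) and Palld (0.89) and Tgfbr1 like Zdhhc21 (0.82) and Tnfsf11 (0.81). Tgfbr3 was most like Arhgap28 and Ednrb (both 0.94), Smad3 like Rnf149 (0.90) and Tnip1 (0.85), Smad6 like Lmnb2 (0.90) and Cyp1b1 (0.89), and Smad7 like 2700038G22Rik (0.84) and Stk24 (0.83).

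The rest of the pathway was followed through lists of its genes, without the 9 members. Some lists share genes, such as Inhba, Pmepa1, Skil and Tgif1, and Dcn, Col3a1 and Comp are also among the markers. A shared gene counts in each of its lists, so the lists are not separate evidence. Their counts are to be read against the shares of all tested genes called higher and lower, which were 12.9% and 6.24% with AdenoCre, 7.01% and 5.74% with siP53 and 7.47% and 4.39% with siLincp21 in the lincP21KD experiment, and 19.3% and 19.2% with siP53, 17.2% and 11.8% with siLincp21 and 14.1% and 12.8% with siHnrnpk in the hnRNPKKD experiment. The counts without the second siP53 array come from another fit, to which these shares do not apply. With 1 array left out, siP53 calls over all genes in the hnRNPKKD experiment were 3821 to 6553, against 4888 with all arrays. Of 20 tested genes for latency and activation of the ligands, 5 rose and 1 fell with AdenoCre, with Ltbp2, a latent TGF-beta binding protein family member, up by 0.92 ± 0.09 and the protease Mmp2 by 0.69 ± 0.09 (limma, adjusted p = 0.0012 and 0.00266). In the lincP21KD experiment 4 rose and 0 fell with siP53, led by fibromodulin, Fmod (1.63 ± 0.15, adjusted p = 0.00015), and 5 rose and 1 fell with siLincp21, where the latent ligand activator Thbs1 fell by 0.88 ± 0.14 (adjusted p = 0.00383). In the hnRNPKKD experiment 7 rose and 2 fell with siP53 (35% and 10% of the list; 9 and 3 genes without the second siP53 array), 9 rose and 1 fell with siLincp21 (45% and 5%), and 4 rose and 7 fell with siHnrnpk (20% and 35%). Ltbp2 rose by 1.34 ± 0.11 with siLincp21 and by 0.86 ± 0.11 with siHnrnpk (limma, adjusted p = 3.89e-06 and 0.000112). The proteoglycan decorin, Dcn, which binds the ligands, fell with both, by 0.66 ± 0.08 and 0.83 ± 0.08 (adjusted p = 7.16e-05 and 1.5e-05), but rose in the lincP21KD experiment by 0.43 ± 0.10 with siLincp21 and 0.88 ± 0.10 with siP53 (adjusted p = 0.0186 and 0.000341). The fibrillin gene Fbn2 rose with siP53 by 1.62 ± 0.15 (adjusted p = 4.75e-06).

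Of 14 tested genes for other receptors and coreceptors of the superfamily, 3 rose and 0 fell with AdenoCre, namely Acvrl1 (1.08 ± 0.18), Cd109 (0.74 ± 0.13) and endoglin, Eng (0.68 ± 0.14; limma, adjusted p = 0.00602, 0.00852 and 0.0138). With siP53 in the lincP21KD experiment 0 rose and 1 fell (Cd109, -0.31 ± 0.07, adjusted p = 0.0197) and 1 rose and 0 fell with siLincp21 (the decoy receptor Bambi, 0.46 ± 0.08, adjusted p = 0.0052). With siP53 in the hnRNPKKD experiment 2 rose and 4 fell (14.3% and 28.6%; 2 and 6 genes without the second siP53 array), and with siLincp21 and with siHnrnpk 3 rose and 2 fell (21.4% and 14.3% in each). The BMP type II receptor gene Bmpr2 fell by 1.00 ± 0.12 and Acvrl1 rose by 1.29 ± 0.20 with siLincp21 (limma, adjusted p = 6.5e-05 and 0.000395).

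Of 21 other SMADs and cofactors, 0 rose and 1 fell with AdenoCre, 0 rose and 2 fell with siP53 and 2 rose and 1 fell with siLincp21 in the lincP21KD experiment. With siP53 in the hnRNPKKD experiment 8 rose and 3 fell (38.1% and 14.3%; 9 and 2 genes without the second siP53 array), 3 rose and 6 fell with siLincp21 (14.3% and 28.6%), and 4 rose and 4 fell with siHnrnpk (19% each). The SMAD corepressor gene Ski rose with siP53 (0.90 ± 0.12) and siLincp21 (0.57 ± 0.12), and Smad2, the partner of Smad3, fell with siHnrnpk by 0.54 ± 0.08 (limma, adjusted p = 0.000105, 0.00406 and 0.000296). Of 23 genes for receptor turnover and adaptors, 2 rose and 0 fell with AdenoCre, among them the ubiquitin ligase Smurf1 (0.53 ± 0.12, limma, adjusted p = 0.0221). With siP53 in the lincP21KD experiment 1 rose and 2 fell and with siLincp21 2 rose and 1 fell, and in the hnRNPKKD experiment 3 rose and 4 fell with siP53 (13% and 17.4%), 2 rose and 2 fell with siLincp21 (8.7% each), and 2 rose and 1 fell with siHnrnpk (8.7% and 4.35%), all below the shares of all tested genes. Without the second siP53 array 6 rose and 10 fell with siP53. Pmepa1, a feedback inhibitor induced by TGF-beta, fell with siP53 in both experiments (-0.94 ± 0.09 and -0.89 ± 0.13) and with siHnrnpk (-0.79 ± 0.13; limma, adjusted p = 0.000126, 0.000154 and 0.000647).

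Of 24 other ligands and antagonists of the superfamily, 5 rose and 3 fell with AdenoCre. The activin subunit genes Inhbb and Inhba rose by 2.31 ± 0.21 and 0.85 ± 0.10 (limma, adjusted p = 0.000712 and 0.0021). In the lincP21KD experiment 3 rose and 3 fell with siP53 and 2 rose and 1 fell with siLincp21, and in the hnRNPKKD experiment 7 rose and 8 fell with siP53 (29.2% and 33.3%; 7 and 7 genes without the second siP53 array), 7 rose and 2 fell with siLincp21 (29.2% and 8.33%), and 3 rose and 4 fell with siHnrnpk (12.5% and 16.7%). Inhba fell with every siRNA in both experiments, by 1.11 ± 0.09 with siP53 and 0.62 ± 0.09 with siLincp21 in the lincP21KD experiment and by 1.88 ± 0.12, 0.80 ± 0.12 and 1.15 ± 0.12 with siP53, siLincp21 and siHnrnpk in the hnRNPKKD experiment (limma, adjusted p between 4.16e-07 and 0.00297). Bmp8a was the 1 gene of these lists called in the difference between the slopes on hours, at 0.36 ± 0.05 per h (limma, adjusted p = 0.0289).

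Of 43 tested genes known to be induced by TGF-beta in fibroblasts, 10 rose and 3 fell with AdenoCre, with a median of 0.12 against 0.04 over all tested genes. Tgfbi, named for its induction by TGF-beta, fell by 1.72 ± 0.19 and the cytokine gene Il11 rose by 0.64 ± 0.08 (limma, adjusted p = 0.00155 and 0.00283). In the lincP21KD experiment 4 rose and 7 fell with siP53 and 5 rose and 3 fell with siLincp21, with medians of -0.02 and -0.01 against 0.02 and 0.01. In the hnRNPKKD experiment 19 rose and 11 fell with siP53 (44.2% and 25.6%; 21 and 13 genes without the second siP53 array), 15 rose and 6 fell with siLincp21 (34.9% and 14%) and 7 rose and 9 fell with siHnrnpk (16.3% and 20.9%), with medians of 0.24, 0.20 and -0.08 against -0.01, 0.01 and 0.00.

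The members of that list that moved are of different kinds. Inhba and Pmepa1, described above under other lists, are also in it. Timp3, a protease inhibitor, rose with all 3 siRNAs of the hnRNPKKD experiment (1.26 ± 0.09, 1.42 ± 0.09 and 1.2 ± 0.09 with siP53, siLincp21 and siHnrnpk), and the collagen gene Col3a1 rose with siLincp21 in both experiments (0.78 ± 0.10 and 1.04 ± 0.12; limma, adjusted p between 1.08e-06 and 0.00217). Il11 and the hyaluronan synthase Has2 fell with siP53 (-1.74 ± 0.10 and -1.98 ± 0.13) and with siHnrnpk (-1.17 ± 0.10 and -1.28 ± 0.13; limma, adjusted p between 9.65e-08 and 2.59e-05). Tgfbi rose by 1.40 ± 0.10 with siLincp21 in the hnRNPKKD experiment (limma, adjusted p = 1.99e-06).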

How the data were processed

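RNA of 30 samples was measured on Affymetrix arrays, 10 in the time course, 8 in the lincP21KD and 12 in the hnRNPKKD experiment. The deposited table holds log2 values of 45101 probe sets, made by the authors with RMA per the submitters' processing notes. Neither its version nor whether the arrays were summarised together is stated in the labels or notes. Arrays of a further experiment are not used here. Because the values are normalized, background correction and slide or scan date were not varied. The number of arrays limits the precision.

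GEO's platform annotation gave 34958 probe sets 1 gene, 932 several and 9211 none, and only the first were named, 34754 of them through an updated RefSeq entry. Each gene took its brightest probe set, the lowest 40% of probe sets were left out (limit 4.544 log2), and 12674 genes were tested with limma 3.58.1 in R 4.3.3 within each experiment. Virus effects had time as a block, and 20 siRNA arrays were fitted jointly for differences of effects. Calls had a Benjamini-Hochberg adjusted p below 0.05. The code was tested on simulated data. Tables were made with Python 3.11.15, pandas 2.3.3 and NumPy 2.4.6.

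The members and the gene lists were chosen with earlier results of these data known. Text names all 9 members, up to 4 called genes with the smallest adjusted p per list and comparison, Hnrnpk and Cdkn1a as checks, and the 2 genes most correlated with each member called in several comparisons. Some cell type markers are also named by their level above or below the filter, called or not. Replicate numbers paired the arrays for siHnrnpk against control alone, where the 3 same-numbered pairs had correlated deviations of 0.166 to 0.216. Alternatives covered scaling, filter, probe set choice, variance model, blocks, time scale and single arrays left out.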

Additional observations from a re-analysis of the deposited data

Results flagged for a closer look

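The effect of an siRNA against its own controls differed between the lincP21KD and the hnRNPKKD experiment for 6 combinations of member and siRNA, by the test of the difference in the joint fit. For siP53 the difference was -0.85 for Tgfb2, where the effect was -0.25 in the lincP21KD and 0.59 in the hnRNPKKD experiment. It was -0.43 for Tgfb3 (effects of 0.17 and 0.60), -1.04 for Tgfbr3 (0.77 and 1.80) and -0.86 for Smad6 (0.42 and 1.28). For siLincp21 it was -0.63 for Tgfb2 (0.52 and 1.15) and -0.64 for Tgfb3 (0.44 and 1.08). Without the second siP53 array of the hnRNPKKD experiment, which stood apart, the siP53 differences were -0.93 for Tgfb2, -0.43 for Tgfb3, -1.09 for Tgfbr3 and -1.0 for Smad6. The experiments also differ in controls, array levels and number of control arrays, and their part in these differences was not tested. A test for 1 array far from the others needs at least 4 arrays in a group, so it was run in the 2 virus groups of the time course for the 9 members, 18 checks in all, and none passed its limit. The arrays of a virus group are of different times, so change with time widens the spread, and the result does not clear any array. The AdenoGFP array with the lowest median over tested genes was not flagged either. The siRNA groups, with 2 or 3 arrays, were not checked in this way.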

How the results depend on the processing

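Of 26 called differences of members between groups and their controls or viruses, 15 kept their call and direction under every alternative run, and of all 54 called differences 33 did. The cause of the changes was not tested. With AdenoCre against AdenoGFP, 6 members were called, 3 after centring on the median of the tested genes (chosen after seeing the data), 3 with the mean of a gene's probe sets and 2 without the time block, which also gave 1304 calls over all genes against 2427. On log2(hours + 1), slope calls over all genes were 439 against 684 with AdenoCre, 0 against 1 with AdenoGFP and 5 against 23 for their difference. Centring on the tested genes gave 2 and 43 of the last 2, quantile scaling 2 and 37, and trend with robust variances 41 for the difference. The siP53 calls among members in the lincP21KD experiment were 2 against 1 with trend and robust variances, siLincp21 against siP53 there had 5 against 3 after centring on the tested genes, and the siLincp21 difference of effects had 1 against 2 with the mean of probe sets.

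Among differences that were not called, signs turned for Tgfbr2 with siP53 in the lincP21KD experiment (-0.025 with arrays centred on their medians), for Tgfbr2 and Smad3 with siLincp21 there (0.012 and 0.071 with the mean of probe sets), for Smad3 with siP53 in the hnRNPKKD experiment (0.013 after quantile scaling) and for the difference of siLincp21 effects of Tgfbr3 (0.134 with the mean of probe sets).

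Replicate numbers were also used as a replicate block. It gave 2 member calls against 1 for siP53 in the lincP21KD experiment and 5 against 3 for siLincp21 against siP53 there, and turned Tgfbr2 with siP53 there to -0.053. Same-numbered arrays had correlated deviations of -0.218 to -0.211 for that siP53 comparison. The block ended no call for siHnrnpk against control.

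Leaving out 1 time pair gave 2 to 5 member calls and 1146 to 2055 calls over all genes for the virus effect, 204 to 424 slope calls with AdenoCre, 0 to 0 with AdenoGFP and 0 to 19 for their difference. Leaving out 1 array gave 1 to 2 member calls and 620 to 1313 calls over all genes with siP53 and 1 to 4 and 286 to 1377 with siLincp21 in the lincP21KD experiment. It gave 5 to 8 member calls for siHnrnpk against siP53, 2 to 5 for the difference of siP53 effects and 1 to 2 for that of siLincp21 effects. Uncalled differences crossed 0 for Tgfbr1 with AdenoCre (-0.203 to 0.113), with siP53 in the lincP21KD (-0.072 to 0.156) and with siLincp21 in the hnRNPKKD experiment (-0.354 to 0.03), and for Tgfbr2 with AdenoCre (-0.11 to 0.005) and in the lincP21KD experiment with siP53 (-0.05 to 0.046) and siLincp21 (-0.092 to 0.032). They also did for Smad3 with siP53 in the hnRNPKKD experiment (-0.112 to 0.048) and for Smad7 with siP53 in the lincP21KD (-0.11 to 0.042) and the hnRNPKKD experiment (-0.08 to 0.226). Background correction and a slide or date block were not run.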
